A study of Mus musculus with 2 samples.

Results

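The genes described here build, load and gate the primary cilium. They are the rows of the deposited gene table whose symbol matched a fixed pattern of names: intraflagellar transport (Ift) and Bardet-Biedl syndrome (Bbs) genes, the cilium's kinesin and dynein motors, transition zone and basal body genes, and several ciliary membrane and Hedgehog genes. Of 16803 genes in the table, 62 matched. The pattern uses names only, but it was written with earlier results of these data known. Total RNA was sequenced from NE4C cells, an established line of mouse neural stem cells, in a single library per condition, untreated (control) or given HTL (homocysteine thiolactone, a reactive form of homocysteine). The labels do not give the dose or duration of the treatment, and the line is p53-deficient and clonal, so both libraries share that background. The control library held 10350665 reads assigned to genes and the HTL library 9102076. Without replicates, every interval and test below covers the counting error of these 2 libraries only, and compares the libraries rather than the conditions.

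The primary cilium is a single antenna-like projection of the cell membrane built on a centriole, the basal body. Intraflagellar transport (IFT) trains carry tubulin and other cargo outward on kinesin-2 and back on dynein-2, with IFT-B leading the outward and IFT-A the return trip. The BBSome is a coat-like complex that rides these trains and moves membrane proteins, while the transition zone at the cilium's base gates what enters. Neural progenitors read Sonic hedgehog through their cilia, and loss of many of these genes in the mouse disturbs patterning or closure of the neural tube.

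Many cilium genes carry in their promoters an X-box, the imperfect palindrome bound by RFX transcription factors. RefSeq promoter windows (GRCm38.p6, 250 bases before to 50 after each start) were at hand for 55 members, 63 windows in all. The letters GTNNCC and GGNAAC with 1, 2 or 3 bases between them (GTNNCCNGGNAAC, GTNNCCNNGGNAAC and GTNNCCNNNGGNAAC) were searched on both strands. A match was found in 13 of the 63 windows (20.6%), against 708 of 32851 windows of all genes (2.16%). The shorter half-site GTTGCC, which overlaps many of these matches, was in 26 windows of members (41.3%) and in 4111 of all (12.5%). The motifs were chosen after the values had been seen, and a match is a description of the letters, not a bound site. The following 30-base windows are on the strand of each gene, with the match in capitals. Of the members with an X-box, they show those with the lowest (Bbs1, Tmem231) and highest (Tctn3) log2 ratio of HTL over control, and 3 members between them.
Bbs1: ctgagctgGTTGCCAAGGCGACgcctggga
Tmem231: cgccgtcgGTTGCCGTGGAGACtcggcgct
Bbs7: gcgccccgGTTGCCTTGGAAACcggccagc
Mks1: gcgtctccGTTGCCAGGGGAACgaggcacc
Ift57: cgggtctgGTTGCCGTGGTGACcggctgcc
Tctn3: ctcccagcgGTTGCCAGGTAACgggaacca
The windows lie at chr19:4906605-4906634 (minus strand) for Bbs1, chr8:111933781-111933810 (minus) for Tmem231, chr3:36613489-36613518 (minus) for Bbs7, chr11:87853183-87853212 (plus) for Mks1, chr16:49699199-49699228 (plus) for Ift57 and chr19:40612351-40612380 (minus) for Tctn3, all in GRCm38.p6. Measured to the centre of the match, the Bbs1 site is 8 bases after the start, that of Tmem231 18 bases after, that of Mks1 18 before, that of Ift57 80 before, that of Bbs7 114 before and that of Tctn3 134 before. The other members with a match were Bbs4, Ift22, Intu, Nphp4, Tctn1, Tctn2 and Tmem216.

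More cilium genes were called lower than higher in the HTL library. A call required an adjusted p no larger than 0.001 (exact binomial test on the reads, Benjamini-Hochberg adjustment over all genes tested) and a log2 ratio at or beyond 1 in either direction. By that rule 12 of the 61 members tested were called lower and 0 higher, that is 19.7% of members against 7.98% of all 13442 genes tested called lower and 2.81% called higher. Past the exact binomial adjusted p of 0.001 alone, 21 members were lower and 3 higher, where 24.1% of all genes were lower and 14.5% higher. The median log2 ratio of the members was −0.34 (range −4.23 to 0.86), and 44 of 61 (72.1%) lay below 0. Over all genes tested the median was −0.14, with 58.7% below 0, a shift in the same direction over the whole table. With TMM scaling, which moves the median of all genes by 0.13, 9 members were called lower and 0 higher, against 5.95% and 4.11% of all genes; Ift74, Tmem231 and Ttc21b then fell just short of the fold. If replicates are assumed to vary with a coefficient of variation of 0.2, 3 members (Bbs10, Bbs12 and Cep290) were called lower and 0 higher, against 0.61% and 0.283%. The members' summed reads went from 15730 (0.152% of the library) in the control to 11459 (0.126%) in the HTL library.

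Most members were expressed at a low to moderate level. FPKM, which scales reads to transcript length and library size, allows levels of different genes to be set side by side. The median over the 62 members was 5.14 FPKM in the control and 3.745 FPKM in the HTL library. Tulp3, an adaptor that brings membrane receptors to IFT-A, had the highest level in both libraries (50.74 and 57.26 FPKM). Kif17, a homodimeric kinesin-2 best known from neurons, had the lowest (0.06 and 0.04 FPKM). Its 2 and 1 reads were under the minimum of 10 reads over both libraries, so it was not tested, and no fold is given.

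**Figure D1:**
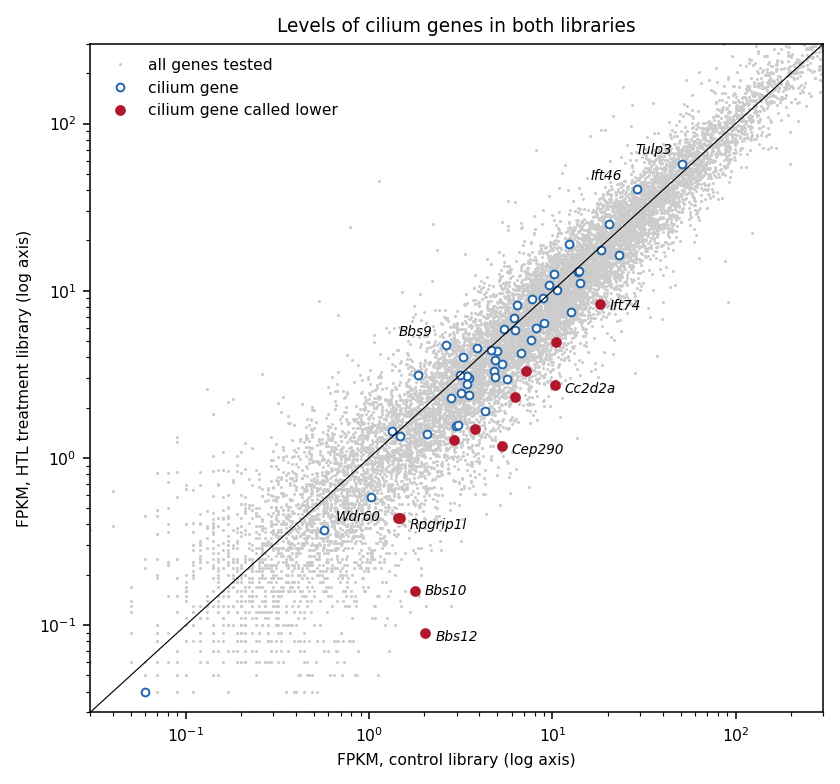
Deposited FPKM of every gene tested (grey) and of the cilium genes (blue rings; red where called lower) in the control (x axis) and HTL (y axis) library, both on log axes, with the line of equal level. The 12 called members all sit below the line, Bbs12 and Bbs10 farthest from it, and Ift46, Tulp3 and Bbs9 sit above it.

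The deepest falls were in the BBS genes that resemble chaperonins. Bbs10 and Bbs12 encode proteins that, with Mkks, help fold and assemble the BBSome. Bbs12 had 52 reads in the control and 2 in the HTL library (2.03 and 0.09 FPKM). The ratio was 18.7-fold lower in the HTL library (log2 −4.23, 95% interval −7.60 to −2.59, exact binomial adjusted p = 1.64e-11), and its size is loosely set because it rests on 2 reads. Bbs10 fell from 51 to 4 reads (1.78 to 0.16 FPKM), 10.1-fold (log2 −3.34, interval −5.42 to −2.04, exact binomial adjusted p = 1.24e-09). Both genes have few exons, 2 in the longest coding transcript of each. In the NCBIM37 (mm9) annotation Bbs10 is at chr10:110735735-110738792 and Bbs12 at chr3:37211476-37220375, both on the plus strand. Exons of Bbs12 overlap those of Fgf2 on the same strand, not analysed here, and of Cetn4 on the opposite strand, which had 3 and 6 reads. Mkks, the remaining chaperonin-like BBS gene, was no member by its symbol. It had 110 reads in the control and 128 in the HTL library (log2 0.40, interval 0.025 to 0.79, exact binomial adjusted p = 0.0562) and was not called.

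Within the BBSome itself and its recruiting GTPase Arl6, 2 of 8 genes were called lower and 0 higher (7.98% and 2.81% of all genes tested), with a median log2 ratio of −0.62. Ttc8 (BBS8), a TPR-repeat subunit, had 90 and 31 reads and was 2.53-fold lower in the HTL library (log2 −1.34, interval −1.99 to −0.75, exact binomial adjusted p = 8.33e-06). Bbs1, the subunit that contacts Arl6 and cargo, had 171 and 66 reads and was 2.27-fold lower (log2 −1.18, interval −1.62 to −0.77, exact binomial adjusted p = 1.44e-08). Their levels went from 3.78 to 1.48 FPKM and from 2.90 to 1.28 FPKM. Computed from FPKM + 1, which damps ratios of low genes, neither reached the fold (−0.95 and −0.77).

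The other BBSome subunits spread to both sides of 0. Bbs2, a beta-propeller subunit, had 95 and 43 reads and passed the p but not the fold (log2 −0.95, exact binomial adjusted p = 6.00e-04). Bbs5 had 71 and 39 reads, Bbs7 56 and 33, and Bbs4 132 and 101. Bbs9, which forms a scaffold of the complex, had more reads in the HTL library, 147 against 92 in the control (4.71 and 2.61 FPKM). Its log2 ratio of 0.86 (interval 0.48 to 1.25, exact binomial adjusted p = 2.18e-05) was the highest of all members and fell short of the fold used for a call. Arl6 had 99 and 112 reads. The subunits of this 1 complex thus ran from −1.34 to 0.86 on the log2 scale.

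**Figure D2:**
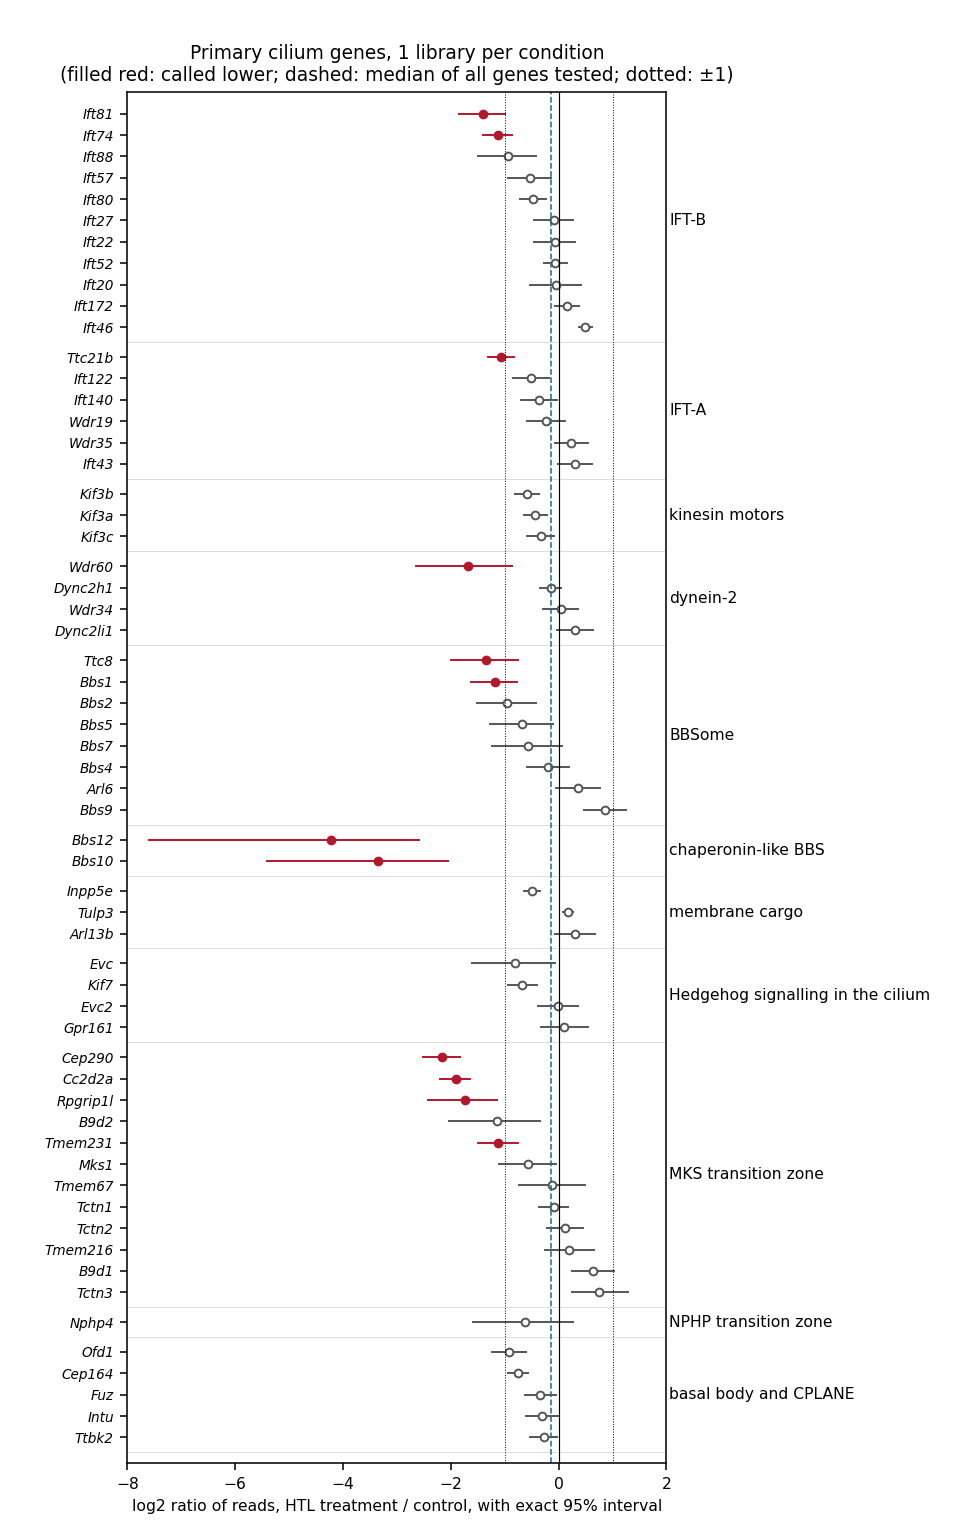
Log2 ratio of reads (HTL over control, x axis) of 59 of the members tested, ordered by role, with exact 95% intervals that cover counting error only. The 12 called genes (filled red) lie at or below −1.07, Bbs12 and Bbs10 carry the widest intervals, and the dashed line marks the median of all genes tested (−0.14).

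In the MKS module of the transition zone, 4 of 12 genes were called lower and 0 higher, against 7.98% and 2.81% of all genes tested. The module's median log2 ratio was −0.34, against −0.14 for all genes. Cep290, which spans the gap between axoneme and membrane at the transition zone and is mutated in Joubert and Meckel syndromes, had 443 reads in the control and 87 in the HTL library (5.28 and 1.18 FPKM). It was 4.46-fold lower (log2 −2.16, interval −2.51 to −1.83, exact binomial adjusted p = 1.30e-47). Cep290 has 53 exons at chr10:99950923-100036289 on the plus strand (NCBIM37). Its exons overlap those of 4930430F08Rik on the opposite strand, which had 137 and 62 reads, and without a stated use of strand the reads of both cannot be told apart.

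Cc2d2a, a C2-domain protein of the same gate, had 587 and 137 reads (10.27 and 2.72 FPKM). Its ratio was 3.76-fold lower (log2 −1.91, interval −2.19 to −1.64, exact binomial adjusted p = 8.77e-54), the smallest p of any member. Rpgrip1l, a scaffold to which other transition zone proteins attach, fell from 108 to 28 reads and from 1.48 to 0.44 FPKM, 3.35-fold (log2 −1.75, interval −2.42 to −1.15, exact binomial adjusted p = 1.32e-09). Tmem231, a membrane protein of the B9 complex, fell from 216 to 87 reads and from 7.19 to 3.29 FPKM, 2.18-fold (log2 −1.12, interval −1.50 to −0.76, exact binomial adjusted p = 8.20e-10). The counting intervals of all 4 genes lay below 0, which the call itself implies. From FPKM + 1, Rpgrip1l and Tmem231 did not reach the fold (−0.78 and −0.93).

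The remaining MKS genes were not called. B9d2, a B9-domain partner of Mks1, had 46 and 18 reads and passed the fold but not the p (log2 −1.15, interval −2.04 to −0.35, exact binomial adjusted p = 0.00574). Its relative B9d1 had 101 and 138 reads (log2 0.63, exact binomial adjusted p = 0.00181), on the other side of 0. Mks1 had 86 and 51 reads. Among the membrane proteins, Tmem67 had 53 and 43 reads and Tmem216 82 and 83. The 3 tectonic genes, Tctn1, Tctn2 and Tctn3, had 260 and 215, 154 and 147, and 53 and 79 reads, and none was lower by more than its interval. Tctn3, whose X-box is printed above, had a log2 ratio of 0.76 (interval 0.24 to 1.29, exact binomial adjusted p = 0.00647).

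Nphp4, a scaffold protein that docks on the same zone, had 30 reads in the control and 17 in the HTL library (0.57 and 0.37 FPKM). It was not called (log2 −0.62, interval −1.59 to 0.27, exact binomial adjusted p = 0.263).

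Of the 11 members in IFT-B, the outbound train, 2 were called lower (7.98% of all genes tested). The median log2 ratio of the 11 was −0.093, against −0.14 for all genes. The called genes were Ift74 and Ift81, which pair through coiled coils and together bind tubulin. Ift81 had 191 reads in the control and 63 in the HTL library (6.21 and 2.32 FPKM), 2.65-fold lower (log2 −1.41, interval −1.85 to −0.997, exact binomial adjusted p = 4.98e-12). Ift74 had 405 and 163 reads (18.13 and 8.28 FPKM), 2.18-fold lower (log2 −1.13, interval −1.40 to −0.86, exact binomial adjusted p = 1.27e-17).

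The other IFT-B members differed less, and 1 was higher by the p alone. Genes of this train outside the name pattern are not in these counts. Among the further IFT genes given below, Ttc30a1 lay lower than Ift81 and Ift74 (log2 −2.26), while Hspb11, Traf3ip1 and Ttc26 lay above 0. Ift88, the gene disrupted in the Oak Ridge polycystic kidney mouse, had 96 and 44 reads (log2 −0.93, interval −1.49 to −0.41, exact binomial adjusted p = 6.69e-04), just short of the fold. Ift80 had 383 and 242 reads and Ift57 140 and 85. Ift27, Ift22, Ift52 and Ift20 had 148 and 122, 128 and 107, 404 and 340, and 85 and 72 reads, with log2 ratios from −0.093 to −0.054. Ift172, linked to the turnaround of trains at the tip, had 350 and 344 reads. Ift46, which carries outer arm dynein cargo in motile cilia, had 1003 reads in the control and 1240 in the HTL library (28.86 and 40.48 FPKM). Its log2 ratio was 0.49 (interval 0.37 to 0.61, exact binomial adjusted p = 6.96e-15), so the IFT-B transcript with the highest FPKM lay on the other side of 0 from Ift74 and Ift81. Ift46, Bbs9 and Tulp3 were the 3 members higher by the p alone and are singled out after their values were seen.

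In IFT-A, which brings trains back and admits membrane proteins, 1 of 6 genes was called lower, against 7.98% of all genes tested, so the count rests on a single gene. Ttc21b (IFT139) had 488 reads in the control and 204 in the HTL library (10.45 and 4.96 FPKM), 2.10-fold lower (log2 −1.07, interval −1.32 to −0.83, exact binomial adjusted p = 1.82e-19). Ift122 had 203 and 125 reads, Ift140 192 and 131, and Wdr19 (IFT144) 162 and 121. Wdr35 (IFT121) and Ift43 lay on the other side of 0, with 178 and 184, and 169 and 183 reads. The median over the 6 was −0.30. The call of Ttc21b was lost under every other scaling tried (−0.94 with TMM, −0.93 with median of ratios and −0.98 with upper quartile), relative to genes of like length (−0.87) and from FPKM + 1 (−0.94).

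Among the motors, the largest change was in a dynein-2 intermediate chain. Wdr60 (now also called Dync2i1) had 56 reads in the control and 15 in the HTL library (1.44 and 0.44 FPKM), 3.21-fold lower (log2 −1.68, interval −2.64 to −0.87, exact binomial adjusted p = 3.81e-05). The other intermediate chain, Wdr34, had 165 and 149 reads. The heavy chain Dync2h1 had 504 and 401 reads and the light intermediate chain Dync2li1 144 and 157. Of dynein-2, 1 of 4 genes was called lower, against 7.98% of all genes tested. The call of Wdr60 was lost from FPKM + 1 (−0.76) and, at an assumed coefficient of variation of 0.1, by its p.

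None of the 3 kinesin-2 genes tested was called, and all lay below 0 when scaled to the library totals. Kif3b, 1 of the paired motor subunits of heterotrimeric kinesin-2, had 453 and 265 reads (log2 −0.59, interval −0.81 to −0.37, exact binomial adjusted p = 4.04e-07). Its partner Kif3a had 462 and 301 reads (log2 −0.43, exact binomial adjusted p = 1.39e-04). Kif3c, an alternative partner, had 347 and 242 reads (log2 −0.33), and relative to genes of like transcript length it lay at 0.044. The exons of Kif3c overlap those of 1110002L01Rik on the opposite strand, which had 499 and 113 reads.

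None of the membrane cargo or Hedgehog genes was called. Inpp5e, the phosphatase that keeps the ciliary membrane low in a phosphoinositide, had 939 and 584 reads (22.98 and 16.42 FPKM), with a log2 ratio of −0.50 (interval −0.65 to −0.35, exact binomial adjusted p = 1.76e-10). Its exons overlap those of Pmpca on the opposite strand (2169 and 1566 reads). Arl13b, the GTPase that targets Inpp5e to the cilium, had 120 and 130 reads. Tulp3 had 1798 and 1788 reads, a log2 ratio of 0.18 once scaled to the library totals (interval 0.082 to 0.27, exact binomial adjusted p = 6.59e-04).

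Of the Hedgehog components that work inside the cilium, Kif7 passed the p alone. Kif7, the kinesin that sets up the ciliary tip compartment for Gli factors, had 319 and 176 reads (log2 −0.67, interval −0.95 to −0.40, exact binomial adjusted p = 1.93e-06). Evc had the largest log2 ratio of these 4 genes, −0.80 from 46 and 23 reads, with an interval of −1.60 to −0.063 and an exact binomial adjusted p of 0.0519. Its partner Evc2, which tethers Smoothened near the base, had 135 and 118 reads. Gpr161, a receptor that holds the pathway off, had 96 and 91.

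The 5 basal body and CPLANE genes lay below 0 when scaled to the library totals, with a median log2 ratio of −0.34, and none was called. Relative to genes of like transcript length, Ttbk2 and Intu lay above 0 (0.098 and 0.064). Ofd1, a centriolar satellite and distal centriole protein, had 263 and 122 reads (log2 −0.92, interval −1.24 to −0.61, exact binomial adjusted p = 8.66e-09). It overlaps Trappc2 on the opposite strand, which had 53 and 25 reads. Cep164, which builds the appendages that dock the centriole to the membrane, had 725 and 379 reads (12.59 and 7.47 FPKM). Its log2 ratio was −0.75 (interval −0.93 to −0.57, exact binomial adjusted p = 4.86e-16). Ttbk2, the kinase that starts cilium assembly there, had 323 and 234 reads. The planar polarity effectors Fuz and Intu, which recruit IFT-A to the basal body, had 250 and 174, and 229 and 162 reads.

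Exons of Ift57, Ift88, Kif3a, Kif7, Fuz, Tctn1, Tmem67 and Tmem216 also overlapped an antisense neighbour, and those of Ttbk2 and Kif17 a neighbour on their own strand, which leaves the split of their reads uncertain.

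Transcript length moved with the ratios and is given beside them. The 61 members had a longer median transcript than all genes (3402 against 2888 bases in the deposited table). Over all genes the median log2 ratio ran from 0.14 in the shortest of 10 equal bins of length to −0.38 in the longest, and the share called lower from 2.45% to 15.2%. Spearman's rho of length and log2 ratio was −0.24 over the 61 members and −0.18 over all genes, each a description across genes of the same libraries. Set against the median of genes of like length, the members' median log2 ratio was −0.21. Called and other members had like lengths (medians 3341 and 3402 bases). Relative to genes of like length, a low median of the called members follows from the fold used to choose them, and it was −1.30. On that scale Bbs1, Tmem231 and Ttc21b fell short of the fold (log2 −0.90, −0.99 and −0.87) and Bbs9 reached it (1.03). Bbs12 and Bbs10, with 2463 and 2753 bases, were shorter than the median gene.

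**Figure D3:**
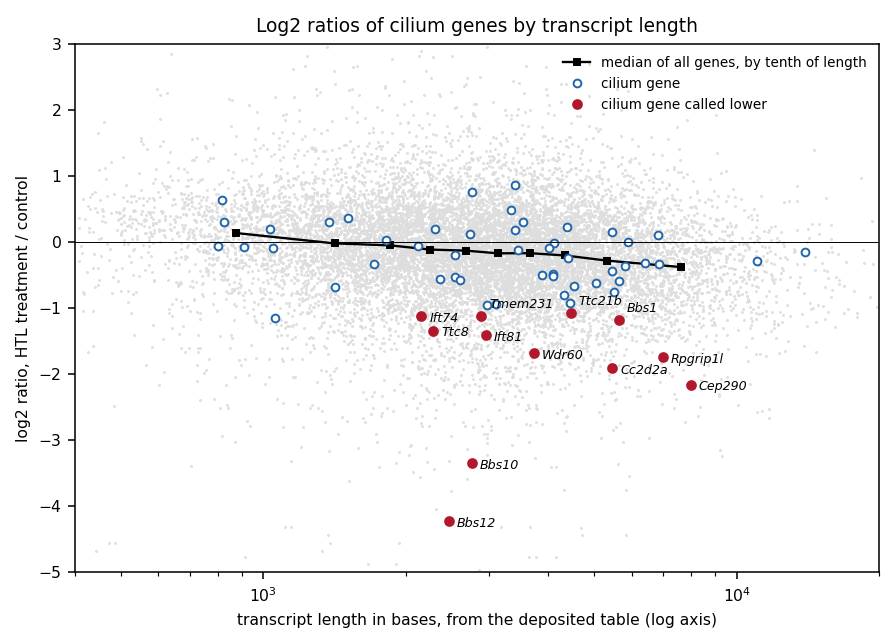
Log2 ratio (HTL over control) against transcript length (log axis) for all genes tested (grey) and the cilium genes (rings; red where called lower), with the median of all genes in each of 10 bins of length (black). That median declines from 0.14 to −0.38, and all 12 called members lie below it, as the fold used for a call requires, from Ttc21b at −1.07 to Bbs12 at −4.23.

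Members with and without an X-box match had medians close to each other. The 13 with a match had a median log2 ratio of −0.31 and 2 called genes, Bbs1 and Tmem231. The 41 tested members with a promoter window but no match had a median of −0.36 and 9 called genes. Of all genes tested 7.98% were called lower. Their median control levels were 5 and 5.28 FPKM. Bbs1 at −1.18 was the lowest member with a match and Tctn3 at 0.76 the highest. No match was found for Bbs12, Bbs10, Cep290, Cc2d2a, Rpgrip1l, Wdr60 or Ttc8, which lay lower, and the promoter of Ift81 was not analysed here.

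The RFX factors, which bind this motif, were read with Foxj1 from a list of their own. Of 6 RFX genes and Foxj1, the master regulator of motile cilia, 3 were called lower and 0 higher (7.98% and 2.81% of all genes tested). The list's median log2 ratio of −1.41 is the value of Rfx2 and so rests on 13 and 4 reads. Rfx3, a regulator of cilium genes in the neural tube and node, had 415 reads in the control and 72 in the HTL library (4.31 and 0.85 FPKM; log2 −2.33, interval −2.72 to −1.98, exact binomial adjusted p = 3.90e-49). Rfx1 fell from 371 to 108 reads (log2 −1.59, exact binomial adjusted p = 9.50e-27). Rfx5, which is known for MHC class II promoters rather than for cilia, fell from 162 to 42 (log2 −1.75, exact binomial adjusted p = 6.15e-14). Rfx7 had 879 and 422 reads (log2 −0.87), short of the fold. Rfx2 had 13 and 4 reads, Rfx4 11 and 9, and Foxj1 19 and 30, too few for a precise ratio. The part of the RFX genes in the members' values was not tested.

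Other cilium genes outside the name pattern were read from 7 fixed lists of 75 genes, of which 68 were tested. In all, 17 were called lower and 1 higher, against 7.98% and 2.81% of all genes tested, and their median log2 ratio was −0.20. With TMM scaling Cep83, Lztfl1, Ptch1, Rp2 and Sclt1 fell short of the fold (log2 from −0.98 to −0.87), and 12 genes were called lower and 2 higher. Among 12 further IFT, motor and BBSome genes 3 were called lower. Ttc30a1, an IFT-B subunit encoded by a single exon, had 138 and 25 reads (log2 −2.26, interval −2.96 to −1.66, exact binomial adjusted p = 2.19e-16). Its near copy Ttc30b had 18 and 2, and reads may be split between them. Cluap1 (IFT38) had 152 and 60 reads (log2 −1.15), and Lztfl1, which restrains BBSome entry into the cilium, 210 and 89 (log2 −1.05).

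Among 16 further transition zone and appendage genes 5 were called lower and 0 higher (7.98% and 2.81% of all genes tested). Fbf1, a distal appendage protein, had 427 and 104 reads (log2 −1.85, exact binomial adjusted p = 1.09e-37). Cep41, needed for tubulin glutamylation, had 1943 and 672 (log2 −1.35). Rpgr, Sclt1 and Cep83 had 81 and 31, 133 and 54, and 501 and 220 reads. Cep83 was on the edge of the call (interval −1.24 to −0.77). Ahi1 (jouberin) had 140 reads in the control and 244 in the HTL library (log2 0.98, interval 0.68 to 1.30, exact binomial adjusted p = 3.06e-10), short of the fold; it is named after its value was seen. It was called higher under scaling by upper quartile (1.08), by TMM (1.11) and by median of ratios (1.12), and relative to genes of like length (1.26).

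In the remaining lists the counts are small and stand against 7.98% of all genes tested called lower and 2.81% called higher. The carriers of lipidated cargo had 1 of 5 genes called, Rp2, with 217 and 92 reads (log2 −1.05), and a median of 0.28. Of 10 genes that cap the centriole or take the cilium apart, the 2 called lower, Kif24 (213 and 70 reads, log2 −1.41) and Cep97 (368 and 127, log2 −1.35), work with Ccp110 to hold cilium growth back. By the exact binomial adjusted p alone, 3 genes of this list were higher and 3 lower, against 14.5% and 24.1% of all genes tested. Higher were the mitotic kinases Aurka (2581 and 3211 reads, log2 0.50), Nek2 (1019 and 1105, log2 0.30) and Plk1 (2497 and 2439, log2 0.15). Lower were Kif24, Cep97 and the kinesin Kif2a (1033 and 673, log2 −0.43). The uncalled genes among them are named after their values were seen. Of the 10 genes, 7 lay below 0. Of 14 motile cilium genes only 7 had the reads to be tested, and no motile gene exceeded 3.54 FPKM in either library. Ccdc39 (59 and 9 reads, log2 −2.47) and its partner Ccdc40 (100 and 25, log2 −1.80) were called lower. In the Hedgehog pathway, 1 of 11 genes was called in each direction, both of them pathway targets and inhibitors. Ptch1 had 526 and 220 reads (log2 −1.07) and Hhip 143 and 321 (log2 1.35). The call of Ptch1 was lost under each other scaling tried (−0.94 with TMM, −0.93 with median of ratios and −0.98 with upper quartile), relative to genes of like length (−0.87) and from FPKM + 1 (−0.96), and that of Hhip from FPKM + 1 (0.95). From FPKM + 1 the calls of Kif24 (−0.98), Cep97 (−0.82), Ccdc40 (−0.92), Cluap1 (−0.99), Rpgr (−0.73), Sclt1 (−0.83), Lztfl1 (−0.84), Cep83 (−0.92) and Rp2 (−0.93) were lost as well.

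**Figure D4:**
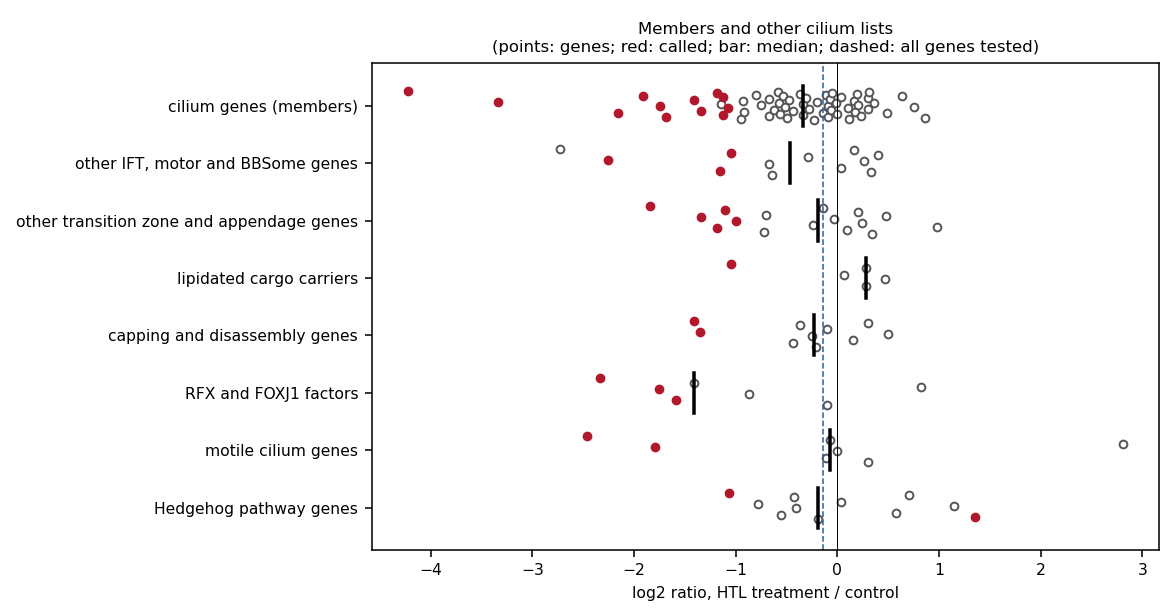
Log2 ratio (HTL over control, x axis) of each tested gene of the members and of the 7 other cilium lists, 1 point a gene, red where called, with a bar at each list's median and a dashed line at the median of all genes tested. The RFX and FOXJ1 list has the lowest median (−1.41, the value of Rfx2 with 13 and 4 reads) and the lipidated cargo carriers the highest (0.28). Hhip is the called point on the higher side.

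The neural stem cell label was read against marker genes. Nes (25.14 and 24.08 FPKM), Msi1 (38.68 and 39.48), Sox2 (34.74 and 12.57) and Vim (78.54 and 38.84) were present in both libraries, Pax6 was low (1.76 and 1.94) and Fabp7 near 0 (0.26 and 0.30). Cdh2 had 16.37 and 12.65 FPKM and Prom1 11.90 and 18.28. Of the 7 stem cell markers tested (Fabp7, with 2 and 2 reads, was not), 2 (Sox2 and Vim) were called lower and 0 higher, against 7.98% and 2.81% of all genes tested; Prom1 was higher by the p alone (log2 0.51, exact binomial adjusted p = 1.12e-07). Of the neuronal markers, Dcx was called lower (0.93 and 0.34 FPKM, log2 −1.40), and Tubb3 was higher by the p alone (16.34 and 24.79 FPKM, log2 0.60, exact binomial adjusted p = 1.91e-07). The defining astrocyte marker Gfap had 2 and 0 reads, and Slc1a3, which neural progenitors also express, had 18.16 and 18.13 FPKM. Of the oligodendrocyte lineage markers none was called and Mbp had the highest level (3.61 and 4.19 FPKM). Fibroblast markers did not exceed 1.98 FPKM (Pdgfrb was called lower, log2 −1.09, and Col1a1 and Col1a2 had 12 and 25 reads each), nor microglial and blood markers 0.46 FPKM. In bulk RNA, fewer cells of a type and less RNA per cell cannot be told apart. The part of these marker differences in the cilium results was not tested.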

How the data were processed

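Total RNA of a control and an HTL-treated NE4C culture was sequenced on a BGISEQ-500, 1 library each. The study's methods state mapping of clean reads to the reference and quantification by the authors with RSEM. The submitters' processing notes name mm9. The mapper, software versions, annotation and use of strand are not given in the sources used here. The authors deposited estimated counts (21.8% of control and 20.2% of HTL values were fractional), FPKM with a lowest value of 0.01 and transcript length per gene. The log2 ratio, p-value and FDR columns that the authors deposited were not used.

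Estimated counts were rounded and scaled to the library totals, and 0.5 read, scaled likewise, was added to each library for log2 ratios. Genes with at least 10 reads over both libraries were tested (13442; 3361 were not). The two-sided exact conditional binomial test was adjusted by Benjamini-Hochberg over all genes tested (Python 3.11.15, scipy 1.17.1). The 95% intervals are exact Clopper-Pearson intervals of the share of reads in the HTL library. The call cutoffs are those of the study's methods. Reads are not independent molecules, so intervals and floors (3 reads, or 0.290 and 0.330 CPM) cover counting error only. For want of replicates, neither edgeR's quasi-likelihood test nor DESeq2's test could be fitted, so edgeR 4.0.16 and DESeq2 1.42.0 served only for alternative scalings and for a test with an assumed spread (R 4.3.3). The procedure was tested on simulated counts with counting error only, which cannot show how the calls behave when cultures vary.

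Positions and exon overlaps came from an annotation of NCBIM37 (mm9), in which 60 members had a single place. Overlapping neighbours were found for 16 members, 2 of them called. Promoters came from a RefSeq table of GRCm38.p6, and no coordinates were converted. The members, lists and tests were chosen with earlier results of these data known. Each member was to be named (2 are counted but not reported here one by one), with full statistics for called members and for the largest absolute log2 ratio in each of 11 roles among genes with at least 50 reads. From each other list the called genes were to be named. The alternatives are given at the end.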

Additional observations from a re-analysis of the deposited data

How the results depend on the processing

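The direction of the group held under each alternative tried, but its size and the number of calls did not. The median log2 ratio of the members, −0.34, was −0.21 with TMM scaling, −0.20 with median of ratios, −0.24 with upper quartile scaling, −0.28 for genes averaging 50 reads or more, −0.27 from FPKM + 1 and −0.21 relative to genes of like length. The medians of all genes were then −0.0076, −0.0011, −0.044, −0.11, −0.099 and 0. The 12 members called became 9 with TMM (800 genes called lower and 552 higher in all, against 1072 and 378) or median of ratios, 11 with upper quartile and 10 relative to genes of like length. That last count is 9 lower and 1 higher, Bbs9 at 1.03. From FPKM + 1, 6 members were called, without Wdr60, Bbs1, Rpgrip1l, Tmem231, Ttc21b and Ttc8 (−0.95 to −0.76). Without a cutoff on the log2 ratio 24 were (3 higher), and at an absolute log2 ratio of at least 2, 3. An assumed coefficient of variation of 0.1 between replicates left 10 (without Ttc8 and Wdr60), 0.2 left 3 (Bbs10, Bbs12 and Cep290) and 0.4 left 0. Of all genes tested, 24.1% were lower and 14.5% higher without the cutoff, and 0.61% and 0.283% were called at 0.2. Apart from these settings and TMM, the share of all genes called was not computed for the alternatives. Their counts of members therefore cannot be set against the whole table. Of the other lists, 18 genes became 14 with TMM, median of ratios (12 lower, 2 higher each) or relative to genes of like length, 7 from FPKM + 1, 29 without the cutoff, 3 at a log2 ratio of 2, 1 at 0.2 and 0 at 0.4. Ift74, Tmem231 and Ttc21b lost the call with TMM and with median of ratios (−0.99, −0.99 and −0.93 with the latter).

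Some uncalled members changed sign, among them Kif3c, Intu and Ttbk2, whose intervals lay below 0. Under the scalings by TMM, by median of ratios and by upper quartile, Evc2 was at 0.12, 0.13 and 0.084, Ift20 at 0.075, 0.082 and 0.039, Ift22 at 0.057, 0.063 and 0.020, Ift27 at 0.037, 0.043 and 0.00011, Ift52 at 0.067, 0.073 and 0.030, and Tctn1 at 0.041, 0.048 and 0.0046. Tmem67 was at 0.014 and 0.020 with the first 2. Relative to genes of like length, Dync2h1 was at 0.23, Evc2 at 0.19, Ift52 at 0.049, Intu at 0.064, Kif3c at 0.044, Tctn1 at 0.11, Tmem67 at 0.053 and Ttbk2 at 0.098. The cause was not tested. No paired analysis was possible because there was a single library per condition, which also meant that none could be left out.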
